A study of Mus musculus with 7 samples.

Results

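The enzymes that make purine and pyrimidine nucleotides, with the folate steps that feed them, were followed in G1E cells, a mouse erythroid precursor line without functional GATA1. The set holds 37 named genes in 10 roles, chosen by what the enzymes do, with earlier results of these data known. A gene counted as measured where a probeset of the array carried its symbol and no other. In all, 34 genes were measured among the 22180 genes of the array that met the same rule. Pfas, Impdh2 and Nme2 had no such probeset and are not analysed here. Where a gene had several probesets, the one with the highest mean over all 7 arrays stood for it.

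Control cells with intact Lockd (genotype label Lockd WT, 3 arrays) were compared with cells in which CRISPR/Cas9 had deleted Lockd (label Lockd deletion, 4 arrays). Lockd makes a long non-coding RNA and neighbours Cdkn1b, the gene of the cell cycle inhibitor p27. All 7 samples were total RNA of the G1E background grown in the same medium, and no age, time point or further treatment is given. The design text calls the cells clones, so differences between single clones and between cultures of a clone cannot be told apart. The series title sets the RNA apart from a cis element tied to it, and a deletion takes away both.

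Purine rings are built step by step on phosphoribosyl pyrophosphate (PRPP) to give IMP, from which AMP and GMP are made. Pyrimidines are built first as a ring and then joined to PRPP to give UMP. Folate carries the one-carbon units that close the purine ring and methylate dUMP. Salvage enzymes recover free bases and nucleosides, and blood cell precursors use both routes while they replicate DNA and make ribosomes.

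Lockd, the targeted gene, read 7.89, 8.04 and 7.80 on control replicates 1 to 3 and 5.09, 5.15, 4.17 and 5.15 on deletion replicates 1 to 4, in log2 RMA units, so the labels and the target went together. Its difference was -3.02 (SE 0.23), with a limma adjusted p of 0.0162. Omitting 1 array put that p over 0.05 for any of the control arrays (0.106, 0.0954 and 0.0941 for replicates 1 to 3), for deletion replicate 1 (0.085) and for deletion replicate 4 (0.0694). Of 12 measured erythroid markers, 10 exceeded the median level of the array on all 7 arrays. The embryonic globin genes Hbb-bh1 and Hbb-y did not, with control means of 5.23 and 4.60. Of the markers of other lineages, 2 of 9 mast cell and basophil, 2 of 6 megakaryocyte and 1 to 3 of 8 myeloid genes lay above that median.

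No nucleotide or folate gene passed the test between the groups. In limma with Benjamini-Hochberg adjustment, 0 of 34 were called at an adjusted p of 0.05, where 0.0085% of the 23521 probesets tested were. The smallest adjusted p among them was 0.999. At an unadjusted p of 0.05 there was 1 of 34, Ada, which was higher. That is 2.94%, where 4.61% of all genes stood (2.24% higher and 2.37% lower, and 4.64% of probesets). With control replicate 1 or 3 left out, or with deletion replicate 1, 3 or 4 left out, Ada was no longer there and the count was 0. Without control replicate 2 the count was again 1, but the gene was Gart. In these bulk samples a smaller share of some cells and less RNA per cell cannot be told apart.

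The intervals limit how large a difference between these samples could have been missed. They rest on the spread between samples, which may be technical and which limma draws toward that of all genes. A dim gene may still hide a change. For 32 of 34 genes the whole 95% interval lay within 0.5 of 0 on the log2 scale, which is a 1.41-fold change either way. The exceptions were Ada, whose interval reached 0.72, and the uridine kinase gene Uck2, whose interval reached 0.51. Among all genes above the median level, 93.4% had intervals as narrow. The median SD between arrays of a group was 0.08 for the 34 genes and 0.10 for those brighter genes. All of the 34 but Pnp lay above the median level of the array.

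**Figure D1:**
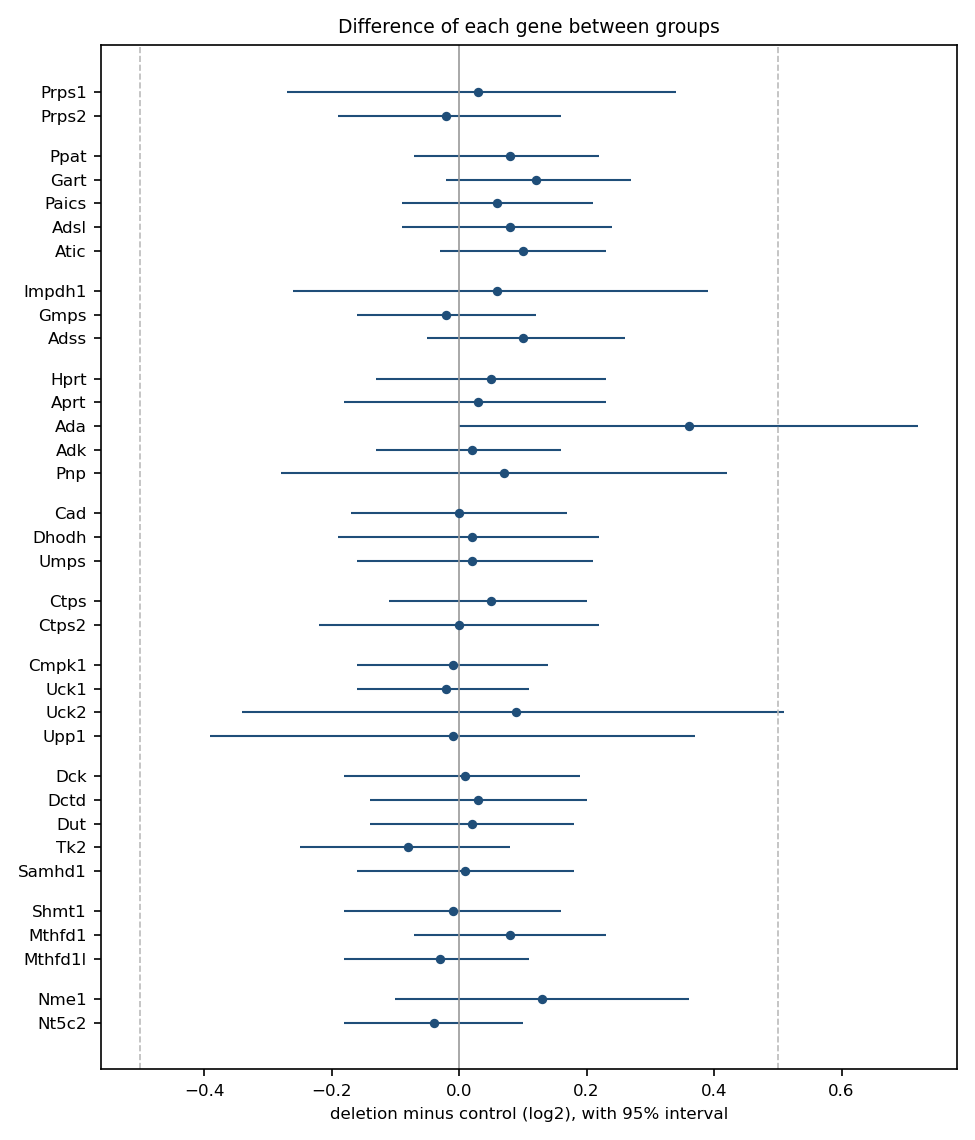
Difference of each measured gene, deletion minus control on the log2 scale, with its 95% interval from limma and dashed lines at 0.5 either side of 0, ordered by role. The intervals of Ada and Uck2 cross a dashed line, and those of the other 32 genes do not.

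As a set the genes sat slightly above 0, and the number above 0 changed with centring of the arrays and with single arrays. Of the 34, 25 were higher in deletion cells, or 73.5% beside 52.2% of all genes, with a median difference of 0.03 beside 0.01. The lean was not particular to these genes. Of 16 measured proliferation genes, 12 were higher, or 75%, with a median of 0.02. After each array was centred on the common median of the tested probesets, 18 of 34 were higher, beside 42.1% of all genes. Centring moved the median of the 34 from 0.025 to 0.002 and that of all genes from 0.005 to -0.018. The 34 thus moved down with all genes and stayed slightly above them. Quantile normalization over the tested probesets left 25 of 34 higher, with a median of 0.03 beside 0.004 for all genes. The median of the 34 was 0.003 without control replicate 1 (18 of 34 higher) and 0.009 without control replicate 3. It was 0.011 without deletion replicate 2 and 0.078 without control replicate 2. The groups did not overlap for 2 genes, Atic and Gart, both higher. That is 5.88%, close to the 5.19% of all genes for which this held (2.65% higher and 2.54% lower). With arrays centred, neither gene was without overlap, where 4.4% of all genes were. With quantile normalization both were, where 5.43% of all genes were.

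The genes of the steps from PRPP to IMP lay slightly above 0. All 5 measured genes, Ppat, Gart, Paics, Adsl and Atic, were higher in deletion cells by 0.06 to 0.12, with a median of 0.08. All 5 were also higher under each of the 18 alternative settings. Those settings reuse the same arrays, and a change of filter or variance model cannot alter a difference. The shared sign is therefore no separate support. None of the 5 genes passed the test. Their intervals ran from -0.09 to 0.27, so each included 0.

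Atic, which makes the final pair of steps to IMP with a folate cofactor, read 11.66, 11.66 and 11.64 on control replicates 1 to 3 and 11.77, 11.74, 11.75 and 11.75 on deletion replicates 1 to 4. Every deletion array lay above every control array, and the SD was 0.01 in both groups. The difference was 0.10 (SE 0.06, 95% interval -0.03 to 0.23), or 7.29% higher, with an unadjusted limma p of 0.111. The SE exceeds what this spread alone would give, since limma draws each gene's variance toward that of all genes.

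Gart, whose trifunctional protein takes 3 of the ring-building steps, read 11.29, 11.38 and 11.23 on control and 11.41, 11.43, 11.47 and 11.39 on deletion arrays. The groups were apart by only 0.01, between control replicate 2 and deletion replicate 4. Its difference was 0.12 (SE 0.06), or 8.90% higher with an interval of -1.68% to 20.6%. A further pair of Gart probesets, dimmer at means near 5 and 7, differed by 0.01 (SE 0.12) and 0.09 (SE 0.10).

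The other genes of this stretch overlapped between groups. Ppat, the amidotransferase that commits PRPP to purines, had a control mean of 10.75 ± 0.04 (SD, n = 3) and a deletion mean of 10.82 ± 0.05 (SD, n = 4). Paics, its neighbour on the opposite strand, averaged 11.45 ± 0.06 and 11.52 ± 0.04, and Adsl, the lyase that acts on both the IMP and the AMP path, 11.06 ± 0.11 and 11.14 ± 0.04. The starts of Ppat and Paics lie 276 bases apart in RefSeq. Neither moved apart from the other, at differences of 0.08 and 0.06 with an SE of 0.06 each.

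The 250 bases before the starts of Atic and Gart, the genes whose groups did not overlap, and of Ada, the gene with the largest difference, are given 5′ to 3′ on the gene's strand from RefSeq (GRCm38.p6). Capitals mark the E-box CACGTG, the letters that MYC and related factors can bind, in Atic, and the CCAAT box (CCAAT, or ATTGG on the other strand) in Gart and Ada. Atic also holds a CCAAT box, which is left in lower case.
Atic chr1:71556906-71557155 (plus strand): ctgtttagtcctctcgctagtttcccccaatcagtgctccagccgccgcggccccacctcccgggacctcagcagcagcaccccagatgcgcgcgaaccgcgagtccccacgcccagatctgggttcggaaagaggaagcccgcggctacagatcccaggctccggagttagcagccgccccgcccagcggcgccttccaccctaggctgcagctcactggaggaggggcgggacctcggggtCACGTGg
Gart chr16:91646973-91647222 (minus strand): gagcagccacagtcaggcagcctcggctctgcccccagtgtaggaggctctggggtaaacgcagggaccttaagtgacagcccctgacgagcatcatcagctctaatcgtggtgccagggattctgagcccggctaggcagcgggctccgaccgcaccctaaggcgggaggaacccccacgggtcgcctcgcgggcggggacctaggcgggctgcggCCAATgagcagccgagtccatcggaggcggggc
Ada chr2:163750240-163750489 (minus strand): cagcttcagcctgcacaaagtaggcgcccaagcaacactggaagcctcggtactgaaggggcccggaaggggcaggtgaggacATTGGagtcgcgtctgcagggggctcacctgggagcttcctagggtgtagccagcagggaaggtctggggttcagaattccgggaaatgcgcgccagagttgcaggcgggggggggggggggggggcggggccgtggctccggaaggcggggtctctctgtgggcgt

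Both motifs were searched on both strands of the 300 bases around each start, 250 before and 50 after, and a match of 1 motif cannot contain the other. RefSeq windows were found for 33 of the 34 measured genes, all but Dhodh. CACGTG stood in 4 of these 33 genes, Atic, Paics, Nme1 and Nt5c2, or 12.1% beside 8.09% of all 27025 genes with a window. Counted back from -1, the base before the start, its first base lay at -7 in Atic and at -18 or -29 in Nme1, depending on the start. A CCAAT box stood in 13 of 33 genes, or 39.4% beside 41.1% of all genes. Its first base lay at -33 in Gart, at -167 in Ada and at -224 in Atic. Ppat, Adsl and Adss held neither motif. These are matches of letters and do not show that a factor binds there.

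**Figure D2:**
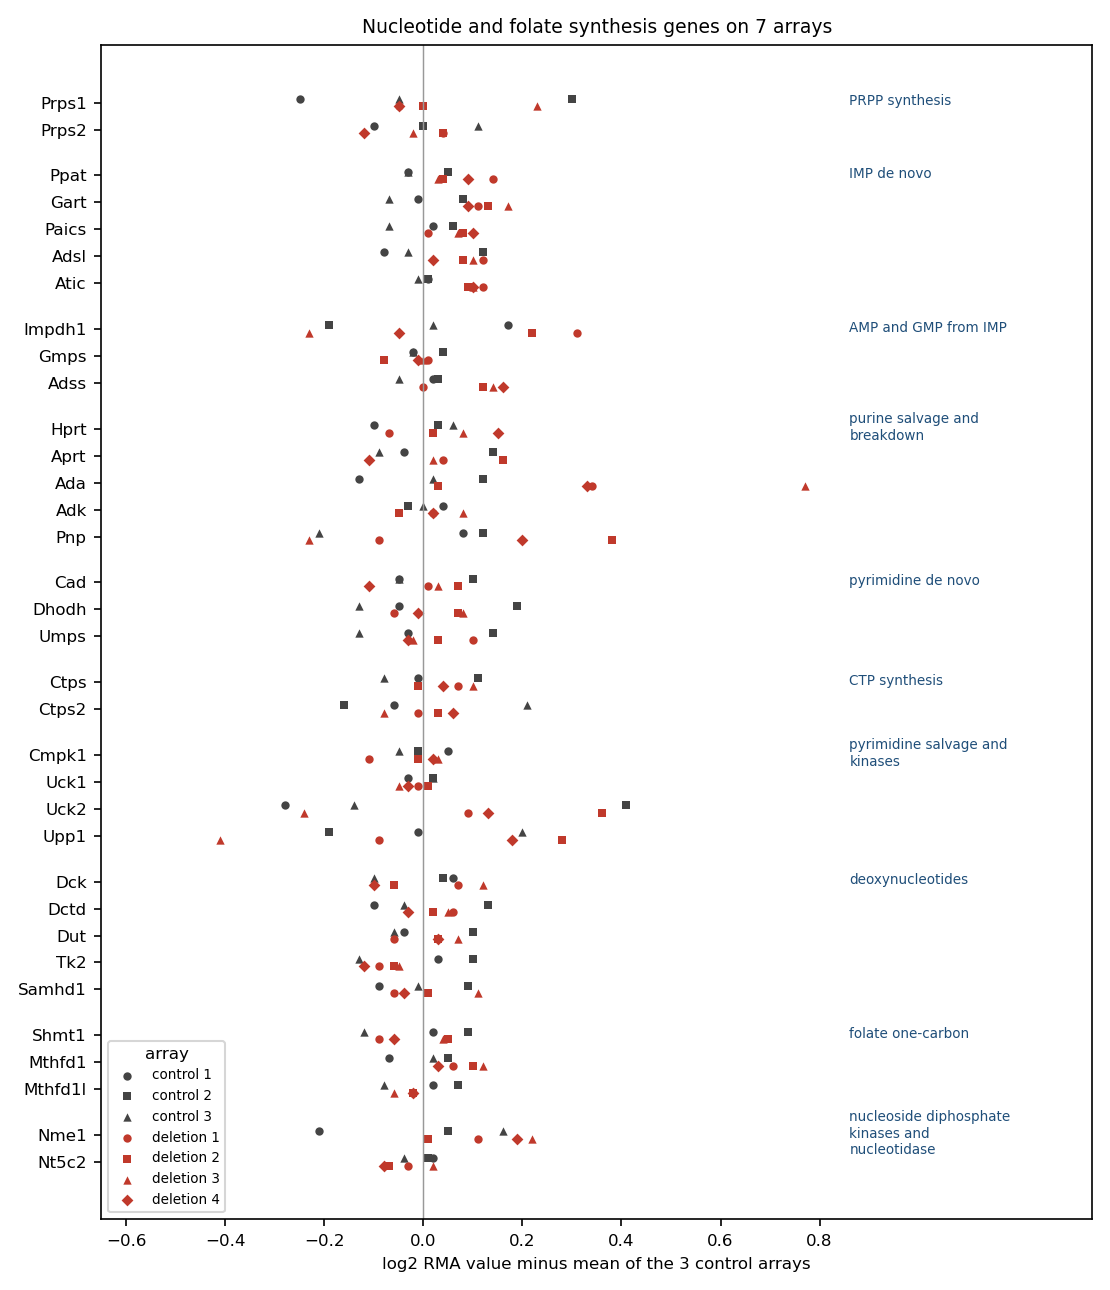
Each point is the log2 RMA value of a gene on 1 array minus the mean of the 3 control arrays (control black, deletion red, marker shape by replicate), with genes grouped by role. Atic and Gart are the genes whose red points all lie right of the black ones, and Ada, Pnp, Uck2, Upp1 and Impdh1 spread most between arrays.

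PRPP itself is made by Prps1 and Prps2, both on the X chromosome. Prps1 read 8.99, 9.54 and 9.19 on control and 9.19, 9.24, 9.47 and 9.19 on deletion arrays, a range in control cells that covered all 4 deletion values. Its difference was 0.03 (SE 0.13), and it ran from -0.09 without control replicate 1 to 0.18 without control replicate 2. Prps2 read 9.80, 9.90 and 10.01 on control and 9.94, 9.94, 9.88 and 9.78 on deletion arrays, and differed by -0.02 (SE 0.08). The balance of the pair within an array, Prps1 minus Prps2, was -0.66 ± 0.27 (SD, n = 3) over the control arrays and -0.61 ± 0.15 (SD, n = 4) over the deletion arrays, a shift of 0.05 that was smaller than the spread and ran from -0.03 without control replicate 3 to 0.20 without control replicate 2.

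From IMP, Adss and Adsl lead to AMP, and Impdh1, Impdh2 and Gmps to GMP. Adss, the adenylosuccinate synthetase of non-muscle cells, read 11.06, 11.07 and 10.99 on control and 11.04, 11.16, 11.18 and 11.20 on deletion arrays. Only deletion replicate 1 fell within the control range, and the difference was 0.10 (SE 0.07, 95% interval -0.05 to 0.26). Its muscle-type relative Adssl1, which is dim here, read 4.88, 4.50 and 4.79 on control and 4.97, 4.89, 4.99 and 4.89 on deletion arrays. It differed by 0.21 (SE 0.10), an unadjusted limma p of 0.0572, and by 0.10 without control replicate 2.

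On the GMP side Gmps, the GMP synthetase, read 11.40, 11.46 and 11.40 on control and 11.43, 11.34, 11.42 and 11.41 on deletion arrays. The values overlapped closely, and the difference was -0.02 (SE 0.06, 95% interval -0.16 to 0.12). Impdh1, the isozyme of IMP dehydrogenase that was measured, averaged 6.96 ± 0.18 (SD, n = 3) and 7.02 ± 0.24 (SD, n = 4).

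Among the salvage and breakdown genes Ada, adenosine deaminase, had the largest difference of the 34. It read 5.48, 5.73 and 5.63 on control and 5.95, 5.64, 6.38 and 5.94 on deletion arrays. The highest values were in deletion cells, but deletion replicate 2 lay below control replicate 2, so the groups overlapped. The difference was 0.36 (SE 0.16, 95% interval 0.00 to 0.72), and limma gave an unadjusted p of 0.0479 (adjusted p 0.999). In percent this was 28.7% higher, with an interval of 0.30% to 65.2%. It ran from 0.23 without deletion replicate 3 to 0.48 without deletion replicate 2, and was 0.11 with the description numbers as a replicate block, a fit that rests on control replicates 2 and 3 and deletion replicates 1 and 2. The probeset was near the middle of the array's levels, at the percentile 52.0, where background can shrink a change.

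The partners of Ada in purine salvage were nearer to 0. Hprt, which returns hypoxanthine and guanine to nucleotides, differed by 0.05 (SE 0.08), Aprt, which does so for adenine, by 0.03 (SE 0.09), and the adenosine kinase gene Adk by 0.02 (SE 0.06). Pnp, purine nucleoside phosphorylase, was the dimmest of the 34 at 5.36 ± 0.18 (SD, n = 3) and 5.43 ± 0.27 (SD, n = 4). All 5 genes of this role had values above 0, but 3 of 5 did so without control replicate 3 or without deletion replicate 2, and 4 of 5 without deletion replicate 3 or with arrays centred.

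Ampd2, the AMP deaminase that returns AMP to IMP, belongs to a wider list of 85 nucleotide and folate genes that was set beside the 34, of which 73 were measured. It had the smallest p of that list. It read 10.19, 10.21 and 9.91 on control and 9.74, 9.83, 9.88 and 9.75 on deletion arrays, so all 4 deletion arrays lay below control replicate 3, the lowest control. Ampd2 was 18.9% lower on average, at -0.30 on the log2 scale (SE 0.09, 95% interval -0.51 to -0.10). The unadjusted limma p was 0.00943 (adjusted p 0.999), and the value ran from -0.40 to -0.25 over the fits that omit 1 array. A second, dimmer Ampd2 probeset, at 5.60 to 5.73 on the 7 arrays, differed by 0.03 (SE 0.06), and the mean over both gave -0.14 with an unadjusted p of 0.0952. It ranked 178 by p among the 22180 genes and was not called.

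**Figure D3:**
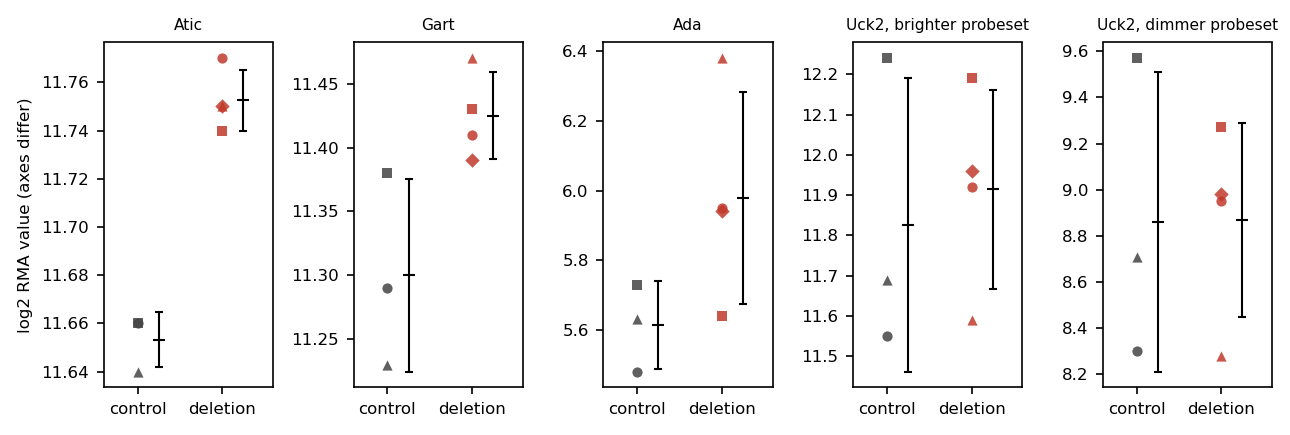
Values of Atic, Gart, Ada and both Uck2 probesets on the 3 control (black) and 4 deletion arrays (red), with marker shape by replicate, group mean and SD at the right of each group, and vertical axes that differ and do not start at 0. Atic and Gart separate by group over a narrow range, while both Uck2 probesets place control replicate 2 highest and control replicate 1 and deletion replicate 3 lowest.

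The de novo pyrimidine genes were level between the groups. Cad, which carries out the opening 3 steps, averaged 10.25 ± 0.09 (SD, n = 3) and 10.25 ± 0.08 (SD, n = 4), and Dhodh, the mitochondrial step, 9.10 ± 0.16 and 9.12 ± 0.06. Umps, which joins the ring to PRPP and releases UMP, read 10.87, 11.04 and 10.77 on control and 11.00, 10.93, 10.88 and 10.87 on deletion arrays. All 4 deletion values lay within the control range, and the difference was 0.02 (SE 0.08). The intervals of the 3 genes ran from -0.19 to 0.22.

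CTP is made from UTP by Ctps and Ctps2. Ctps read 10.01, 10.13 and 9.94 on control and 10.09, 10.01, 10.12 and 10.06 on deletion arrays, with a difference of 0.05 (SE 0.07). Ctps2 read 8.09, 7.99 and 8.36 on control and 8.14, 8.18, 8.07 and 8.21 on deletion arrays, with a difference of 0.00 (SE 0.09). Again the control range covered the deletion arrays for both genes. Ctps minus Ctps2 averaged 1.87 ± 0.28 (SD, n = 3) and 1.92 ± 0.10 (SD, n = 4), where only the shift between groups can be read, since probesets differ in response. That shift was 0.05, and ran from -0.10 without control replicate 3 to 0.17 without control replicate 2.

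Uck2, like Uck1 a uridine-cytidine kinase gene, varied more between arrays than any other of the 34 genes. It read 11.55, 12.24 and 11.69 on control and 11.92, 12.19, 11.59 and 11.96 on deletion arrays. The within-group SD was 0.30, against 0.03 for Uck1, and the difference was 0.09 (SE 0.19, 95% interval -0.34 to 0.51). Its dimmer probeset gave 8.30, 9.57 and 8.71 on control and 8.95, 9.27, 8.28 and 8.98 on deletion arrays. Both probesets ranked control replicate 2 first and deletion replicate 2 next, so the spread was shared by separate measurements of the gene. Without control replicate 2 the difference was 0.29, and without control replicate 1 it was -0.05.

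Uck1 was flat, at 8.07, 8.12 and 8.12 on control and 8.09, 8.11, 8.05 and 8.07 on deletion arrays. Uck1 minus Uck2 therefore followed Uck2, averaging -3.73 ± 0.35 (SD, n = 3) and -3.84 ± 0.22 (SD, n = 4). Its shift of -0.11 ran from -0.31 without control replicate 2 to 0.01 without control replicate 1. Upp1, the uridine phosphorylase gene, also spread widely, with means of 7.19 ± 0.19 (SD, n = 3) and 7.18 ± 0.31 (SD, n = 4). Cmpk1, the UMP and CMP kinase gene, differed by -0.01 (SE 0.07).

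Uprt, a homologue of the uracil phosphoribosyltransferases that turn uracil into UMP in microbes, stood apart on a single array. It belongs to the wider list and was chosen for description after its values were seen. It read 10.13, 9.79 and 9.89 on control replicates 1 to 3 and 10.11, 10.12 and 9.87 on deletion replicates 1 to 3, but 3.94 on deletion replicate 4. That value lay 5.86 log2 units below the next lowest array. Of the 22180 genes, Uprt alone lay more than 3 log2 units below all other arrays on any 1 array, and the next largest gap on deletion replicate 4 was 1.82, for Rgs19.

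The group comparison of Uprt rests on that array. Its difference was -1.43 (SE 1.39, limma adjusted p 0.999), and 0.09 without deletion replicate 4. Nearby genes on the X chromosome did not share the drop, with Rlim at 10.48 and Pbdc1 at 10.40 on deletion replicate 4 and from 10.37 to 10.55 on the other arrays. Immediately beside Uprt on the measured map, Nexmif and Zdhhc15 were dim on all 7 arrays, at 3.11 to 3.77, so a fall could not have been seen there. The gene order is that of GRCm38.p6. Whether 3.94 lies above background was not measured. Lockd read 5.15 on that array, as on deletion replicate 2.

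**Figure D4:**
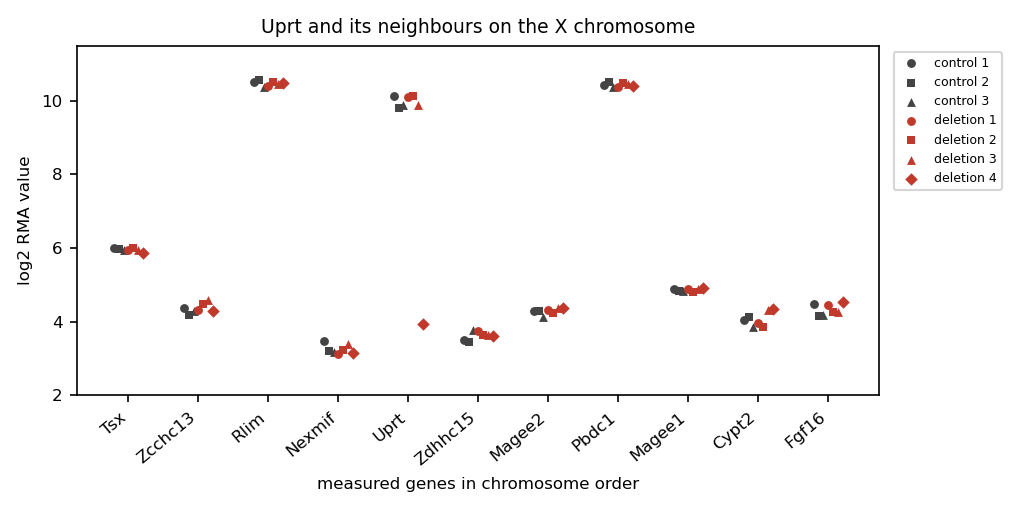
Log2 RMA values of Uprt and the measured protein-coding genes up to 6 places either side of it on the X chromosome, in chromosome order, on the 3 control (black) and 4 deletion arrays (red). Uprt reads 3.94 on deletion replicate 4 and 9.79 to 10.13 on the other 6 arrays, while no neighbour has an array set apart to that degree.

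Deoxynucleotide genes were close to 0 apart from Tk2. Tk2, the mitochondrial thymidine kinase gene, had the largest lower value of the 34. It read 9.77, 9.84 and 9.61 on control and 9.65, 9.68, 9.69 and 9.62 on deletion arrays, so the deletion arrays lay inside the control range. The difference was -0.08 (SE 0.07, 95% interval -0.25 to 0.08), and it was -0.15 without control replicate 3 and -0.03 without control replicate 2. Dck, the deoxycytidine kinase gene, differed by 0.01 (SE 0.08), Dctd, the dCMP deaminase gene, by 0.03 (SE 0.07), and Dut, which removes dUTP, by 0.02 (SE 0.07). Samhd1, which breaks down deoxynucleoside triphosphates, differed by 0.01 (SE 0.07).

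The genes of the wider list that supply DNA synthesis lay between -0.05 and 0.08. Rrm1, the large subunit of ribonucleotide reductase, differed by 0.03 (SE 0.07), Rrm2, its S phase small subunit, by -0.05 (SE 0.07), and the p53-linked small subunit gene Rrm2b by 0.08 (SE 0.07). Tyms, thymidylate synthase, read 9.48, 9.66 and 9.60 on control and 9.59, 9.61, 9.59 and 9.52 on deletion arrays, with a difference of 0.00 (SE 0.07). Tk1, the cytosolic thymidine kinase gene, differed by 0.04 (SE 0.08). The 16 measured proliferation genes had differences between -0.06 and 0.09, and 0 of 16 had an unadjusted limma p under 0.05 or were called.

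In the folate cycle, Mthfd1, the trifunctional cytosolic enzyme that makes the formyl donor for purine rings, read 12.17, 12.29 and 12.26 on control and 12.30, 12.34, 12.36 and 12.27 on deletion arrays. Only deletion replicate 4 fell within the control range. The difference was 0.08 (SE 0.06, 95% interval -0.07 to 0.23). Mthfd1l, its mitochondrial relative, read 11.37, 11.42 and 11.27 on control and 11.33, 11.33, 11.29 and 11.33 on deletion arrays, and differed by -0.03 (SE 0.06). Shmt1, the cytosolic serine hydroxymethyltransferase gene, differed by -0.01 (SE 0.08). The mitochondrial arm in the wider list was also level, with Shmt2 at -0.02 (SE 0.06) and Mthfd2 at 0.06 (SE 0.07).

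Nme1, a nucleoside diphosphate kinase gene, read 8.00, 8.26 and 8.37 on control and 8.32, 8.22, 8.43 and 8.40 on deletion arrays. Control replicate 1 was the low array, and without it the difference of 0.13 (SE 0.10) became 0.03. Without control replicate 3 it was 0.21. Nt5c2, a cytosolic nucleotidase that acts on IMP and GMP, read 10.95, 10.94 and 10.89 on control and 10.90, 10.86, 10.95 and 10.85 on deletion arrays, and differed by -0.04 (SE 0.06).

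Over the wider list, 0 of 73 genes were called by limma and 2 had an unadjusted p under 0.05, Ampd2 lower and Aldh1l1 higher, or 2.74% beside 4.61% of all genes. Aldh1l1, a dehydrogenase that draws on formyl folate, was dim, at 4.99, 5.11 and 5.11 on control and 5.12, 5.32, 5.42 and 5.42 on deletion arrays, and differed by 0.25 (SE 0.09, unadjusted p 0.0223). The groups did not overlap for 4 of the 73, 3 higher and 1 lower, or 5.48% beside 5.19% of all genes. The lower gene was Ampd2. The higher ones, Aldh1l1, Adssl1 and Nt5c1a, were all dim, at level percentiles of 39.4, 31.4 and 36.9. Nt5c1a read 4.98, 4.98 and 5.06 on control and 5.18, 5.10, 5.08 and 5.29 on deletion arrays. Cda, the cytidine deaminase gene, was also dim, at the percentile 38.4. It read 5.22, 4.69 and 5.15 on control and 5.29, 5.14, 5.39 and 5.30 on deletion arrays. Their differences were 0.16 (SE 0.07) and 0.26 (SE 0.13), and that of Cda was 0.10 without control replicate 2. Of the 73 genes, 45 were higher, with a median difference of 0.02.

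Array by array, the 34 genes varied together most clearly on control replicate 2. It was the highest control array for 23 of 34 genes, or 67.6% beside 42.7% of all genes above the median level, and the lowest for 4. The lowest control value came from replicate 3 for 17 genes, or 50.0% beside 35.0%. Prps1 and Uck2 lay 0.46 and 0.62 above the mean of the other control arrays on control replicate 2, Dhodh 0.28 and Umps 0.22. Impdh1, Upp1 and Ctps2 went the other way, at -0.29, -0.28 and -0.24.

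**Figure D5:**
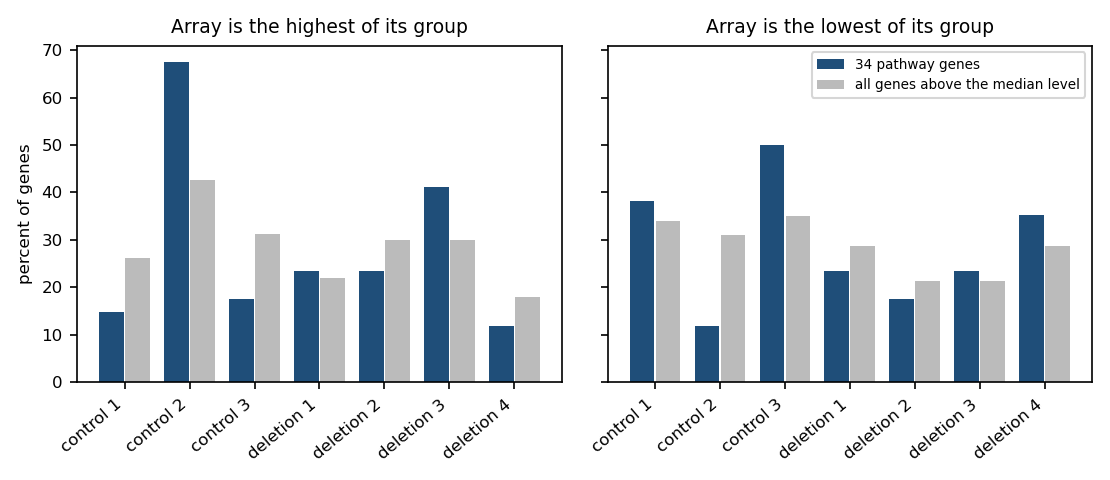
Percent of the 34 nucleotide and folate genes (blue) and of all genes above the median level (grey) for which each array was the highest (left) or lowest (right) of its own group. Control replicate 2 is the highest control array for 67.6% of the 34 genes and 42.7% of the brighter genes.

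Control replicate 2 also stood apart over the whole array, with a score of 29.3 on the leading principal component (29.9% of the variance) and -12.9 to 2.3 for the other arrays. On it the mast cell genes Cpa3 and Ms4a2 read 9.53 and 7.55, while replicates 1 and 3 read at least 11.95 and 9.67. The deletion arrays ran from 9.88 to 11.48 for Cpa3 and from 8.07 to 10.05 for Ms4a2. On control replicate 2, 10 of 16 proliferation genes had their highest control value. Cpa3 and Ms4a2 were the 2 of 9 mast cell and basophil markers above the median level, and their fall carries most of the fall in the mean of the 9. The other 7 lay between 2.69 and 5.48 on the 7 arrays, and Tpsab1 (5.19) and Mcpt4 (3.14) had their highest control value on replicate 2. The mean over all 9 was 5.08 there, 5.58 to 5.68 on the other control arrays and 5.16 to 5.52 on deletion arrays. The part of these in the values of the 34 genes was not tested.

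Leaving out control replicate 2, the highest control array for 23 of the 34 genes, lowers the control maximum for those 23. A lack of overlap with deletion cells higher is then more likely from the outset. Without control replicate 2, the groups did not overlap for 9 of the 34 genes, all higher in deletion cells. This held in that direction for 7.50% of all genes and 9.49% of the brighter ones. The 9 genes were Prps1, Ppat, Gart, Adsl, Atic, Ada, Ctps, Dctd and Mthfd1. The median difference was then 0.078, beside 0.002 for all genes, and the smallest adjusted p among them was 0.938 in limma, so again none was called. The count was 4 without control replicate 3 and 4 without deletion replicate 1, beside 15.0% and 8.56% of all genes in either direction.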

How the data were processed

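Total RNA of 7 G1E samples was hybridised to Affymetrix Mouse Gene 2.0 ST arrays. The authors deposited log2 values from RMA, per the submitters' processing notes and the design text; versions and build were not given in the sources used here. RMA sets arrays to a common distribution and gives no detection call, so a dim gene may hide a change. Groups and replicate numbers came from sample titles. Nothing in the labels says that replicates were separate cultures, so p-values measure only the spread between samples, which may be technical.

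The 23521 probesets with exactly 1 annotated symbol (of 41345) were fitted together in limma 3.58.1 (R 4.3.3), deletion minus control, with lmFit and eBayes, two-sided, p-values adjusted by Benjamini-Hochberg over all of them. No filter or covariate was used. The fit was tested on simulated data. The 37 genes and the wider lists were chosen with earlier results of these data known. Values on every array are given for the 5 largest differences in each direction, the smallest p in each role, isozyme pairs and the 5 smallest p of the wider list. Uprt was picked once its values were known, and other examples have no rule. The 18 alternatives changed the probesets tested, filter, normalization, variance model, array weights, probeset averaging and replicate block, or left out each array. The number of arrays limits the precision.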

Additional observations from a re-analysis of the deposited data

Results flagged for a closer look

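Among 41 groups of 4 deletion arrays examined (the 34 genes, Lockd and 6 genes of the wider list), 5 held an array far from the other 3, and chance sets about 5% of such groups apart. Uprt read 3.94 on deletion replicate 4 and 9.87 to 10.12 on the other deletion arrays. Lockd read 4.17 on deletion replicate 3 and 5.09 to 5.15 on the others. Prps1 read 9.47 on deletion replicate 3 against 9.19 to 9.24, a value still below that of control replicate 2. Gmps read 11.34 on deletion replicate 2 against 11.41 to 11.43, and Mthfd1l read 11.29 on deletion replicate 3 against 11.33 on the other 3. The last pair are gaps of a few hundredths of a log2 unit, and Uprt was added to the groups examined after its values were seen.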

How the results depend on the processing

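The count of called genes was 0 of 34 under all 18 alternatives, with adjusted p of 0.715 or more in limma, and 0 of the wider list was called under any. Of the 34 differences, 13 kept their sign under every alternative and 21 turned at least once, none of them over 0.13 in size as first fitted. The count at an unadjusted p under 0.05 was 1, and 0 with all probesets tested, with arrays centred on the common median and with quantile normalization, 2 with means above the median (Atic and Ada, 6.06% beside 4.42% of genes) and 5 with a trend in eBayes (Gart, Atic, Adss, Ada and Mthfd1, 14.7% beside 4.45%). It was 0 to 1 with each array left out. The count of genes whose groups did not overlap was 0 with arrays centred, beside 4.4% of all genes. It was 1 with the mean over probesets, beside 5.15%. With each array left out it was 2 to 9, and the share of all genes rose to between 8.09% and 15%. The cause of these changes was not tested.

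Replicate numbers did not pair the samples: same-numbered arrays correlated in their deviations at 0.02, 0.06 and -0.10 by title and at -0.17 and -0.10 by description. With the title number as a replicate block, in which deletion replicate 4 drops out, the count at an unadjusted p under 0.05 was 0, Lockd was at -3.10 (adjusted p 0.109), Prps2 at 0.02, Ctps2 at -0.02, Shmt1 at 0.00 and Uprt at 0.09. With the description number as a block, which leaves control replicates 2 and 3 and deletion replicates 1 and 2, the count was 0, Lockd was at -2.80 (adjusted p 0.0771) and signs turned for Prps1 (-0.15), Hprt (-0.07), Dhodh (-0.02), Upp1 (0.09), Ctps2 (-0.02), Dctd (0.00), Dut (-0.04), Samhd1 (-0.07), Nme1 (-0.05) and Uprt (0.27). Lockd was at -3.02 with all probesets tested (adjusted p 0.0991) and at -3.10 to -2.78 with each array left out.

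With arrays centred, Adk (-0.01), Cad (-0.02), Dhodh (-0.01), Ctps2 (-0.02), Dck (-0.02), Dut (-0.01) and Samhd1 (-0.01) turned. With array weights Impdh1 (-0.01), Ctps2 (0.00) and Dck (-0.01) did, and with the mean over probesets Dut (-0.02). Leaving out each array gave ranges across 0 for Prps1 (-0.09 to 0.18), Prps2 (-0.07 to 0.03), Impdh1 (-0.03 to 0.16), Aprt (-0.02 to 0.09), Pnp (-0.03 to 0.17), Dhodh (-0.05 to 0.11), Umps (-0.04 to 0.10), Cad (-0.02 to 0.05), Ctps2 (-0.08 to 0.11) and Cmpk1 (-0.04 to 0.02). The same held for Uck2 (-0.05 to 0.29), Upp1 (-0.11 to 0.12), Dck (-0.04 to 0.04), Dctd (-0.02 to 0.10), Dut (-0.01 to 0.07), Samhd1 (-0.04 to 0.06), Shmt1 (-0.07 to 0.04), Adk (0.00 to 0.04) and Mthfd1l (-0.08 to 0.00), both turning at values that round to 0, and, in the wider list, Uprt (-1.97 to 0.09).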
